A study of Mus musculus with 7 samples.

Results

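The genes encoding fucosyltransferases, sialyltransferases and GalNAc-transferases were examined in the prostate of Nkx3.1-/- mice that received N-acetylcysteine (NAC) or vehicle. Members were chosen by symbol alone, as every measured gene named Fut, St3gal, St6gal, St6galnac, St8sia, Galnt or Galntl followed by a number. This gave 44 of 18938 genes, namely 7 Fut, 18 Galnt (Galntl included), 6 St3gal, 2 St6gal, 6 St6galnac and 5 St8sia genes, with 1 probe set each. NAC is an antioxidant and a precursor of glutathione.

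All mice lacked Nkx3.1, a homeobox transcription factor of the prostate epithelium, on a recombinant inbred B6/129 background. The series holds no wild-type arrays. From weaning, NAC mice drank water with 5 mM NAC for 13 weeks and vehicle mice drank plain water, and all were 16 weeks old at dissection. Each Affymetrix Mouse Gene 1.0 ST array held RNA of 1 mouse, with 4 NAC arrays (replicates 1 to 4) and 3 vehicle arrays (replicates 1, 2 and 4), another vehicle array having failed quality control. Littermates were split between cages of either treatment, so cage and treatment cannot be told apart. The protocol names the anterior lobe of the prostate, while a tissue label names the whole organ. Values are log2 intensities after RMA, in which the probes of a gene are combined into 1 value, and a difference of 1 is a 2-fold difference in intensity. Values of different genes come from different probes and were not compared with each other.

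Glycosyltransferases of the Golgi build the sugar chains that cover secreted and membrane proteins and lipids. GalNAc-transferases start mucin-type O-glycans by placing N-acetylgalactosamine on serine or threonine. Sialyltransferases and fucosyltransferases mostly act late and cap the chains with sialic acid or fucose, which makes blood group and Lewis antigens and the ligands of selectins and Siglecs. The prostate and the seminal vesicle secrete glycoproteins into the seminal fluid.

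Markers of prostate epithelium were present on every array, with 8 of 10 measured at 11.07 to 14.02 and a log2 summed level of 15.42 to 15.54. Seminal vesicle genes were also present, with all 7 measured and a summed level of 14.32 to 14.65 on vehicle arrays and 12.92 to 14.91 on NAC arrays. Svs1 was an exception at 5.05 to 5.25, under the 40th percentile of all genes (6.59). NAC replicate 3 stood apart in genes of other tissues. The summed level of 5 lung genes was 11.44 there and 8.12 to 8.19 on the other arrays, that of 4 adipocyte genes 9.87 against 8.02 to 8.30, and that of 5 skeletal muscle genes 11.46 against 10.87 to 11.16. The summed level of 4 nerve genes was also highest there, at 8.31, although Syp was higher on vehicle replicate 4 (6.75 against 6.63). Values without this array are given for the members it bears on most. In bulk tissue, fewer cells of a type and less RNA per cell cannot be told apart.

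The promoters of Galnt5 and Fut11 are shown because they are genes whose NAC and vehicle values did not overlap and for which a promoter was found in the RefSeq table used. The third such gene, Fut9, has no entry in that table, which holds 30 of the 44 members. Both sequences are the 250 bases before the transcription start on the plus strand of GRCm38.p6, at chr2:57997905-57998154 for Galnt5 and at chr14:20694718-20694967 for Fut11. They are in lower case throughout, since the searched motif occurs in neither.
Galnt5: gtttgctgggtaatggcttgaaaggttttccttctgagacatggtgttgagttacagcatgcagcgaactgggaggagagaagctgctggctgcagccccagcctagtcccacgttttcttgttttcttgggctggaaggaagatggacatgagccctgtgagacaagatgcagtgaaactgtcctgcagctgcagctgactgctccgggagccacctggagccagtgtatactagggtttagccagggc
Fut11: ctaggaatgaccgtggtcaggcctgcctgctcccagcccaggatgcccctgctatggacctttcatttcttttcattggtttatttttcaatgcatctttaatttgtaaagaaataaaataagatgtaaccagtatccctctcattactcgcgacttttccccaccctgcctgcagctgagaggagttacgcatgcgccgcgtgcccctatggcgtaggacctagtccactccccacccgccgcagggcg

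The motif searched on both strands was the core of the antioxidant response element, TGACNNNGC, bound by NRF2. It occurs in the promoter of Fut7, Galnt6, Galnt9 and Galnt17, that is in 4 of the 42 promoters of the 30 members (9.52%), and in 10.2% of the 32851 promoters in the table. Galnt5 and Fut11 had a GC content of 54.0% and 52.0% in this window.

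The comparison of NAC with vehicle asked whether the antioxidant altered the expression of these enzymes in the mutant prostate. Limma compares group means gene by gene, with the variance of each gene drawn toward a value shared by all genes. With it, 0 of 44 members passed an adjusted limma p under 0.05, as did 0 of all 18938 genes (0.0%). The smallest adjusted limma p was 0.827. Before adjustment, 2 members, Fut9 and Galnt5, had a limma p under 0.05 and lower values with NAC (4.55%, background 2.53%), and 0 members had higher values (background 1.89%). In the same 2 members every NAC value lay below every vehicle value (4.55%, background 2.18%). In 1 member, Fut11, every NAC value lay above every vehicle value (2.27%, background 1.29%). Leaving out an array can only keep or raise such counts. They came to 5 higher and 4 lower members without vehicle replicate 1, 4 higher on leaving out either replicate 2, and 3 higher without vehicle replicate 4. The share over all genes was not counted with an array left out, so these rises are not read as a result about the members. The limma p-values set each difference of means against the variation between these 3 and 4 mice, drawn toward the value shared by all genes. They rest on these animals only, and the small number of arrays limits their precision.

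The log2 difference between NAC and vehicle means was above 0 in 30 members and below 0 in 13, with a median of 0.02. Over all genes, 9367 were above and 9492 below 0, with a median of 0.00. For 25 of 44 members the difference was within 0.1 of 0, and for 37 within 0.2. By family, the median difference was 0.11 for Fut, 0.02 for Galnt, 0.09 for St3gal, -0.01 for St6gal, 0.05 for St6galnac and 0.00 for St8sia. The Fut family was the one in which no member lay within 0.1 of 0. Repeated values limit what small differences can show, since 3 or more arrays share an identical value in 12 of the 44 members and in 7568 of all genes.

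**Figure D1:**
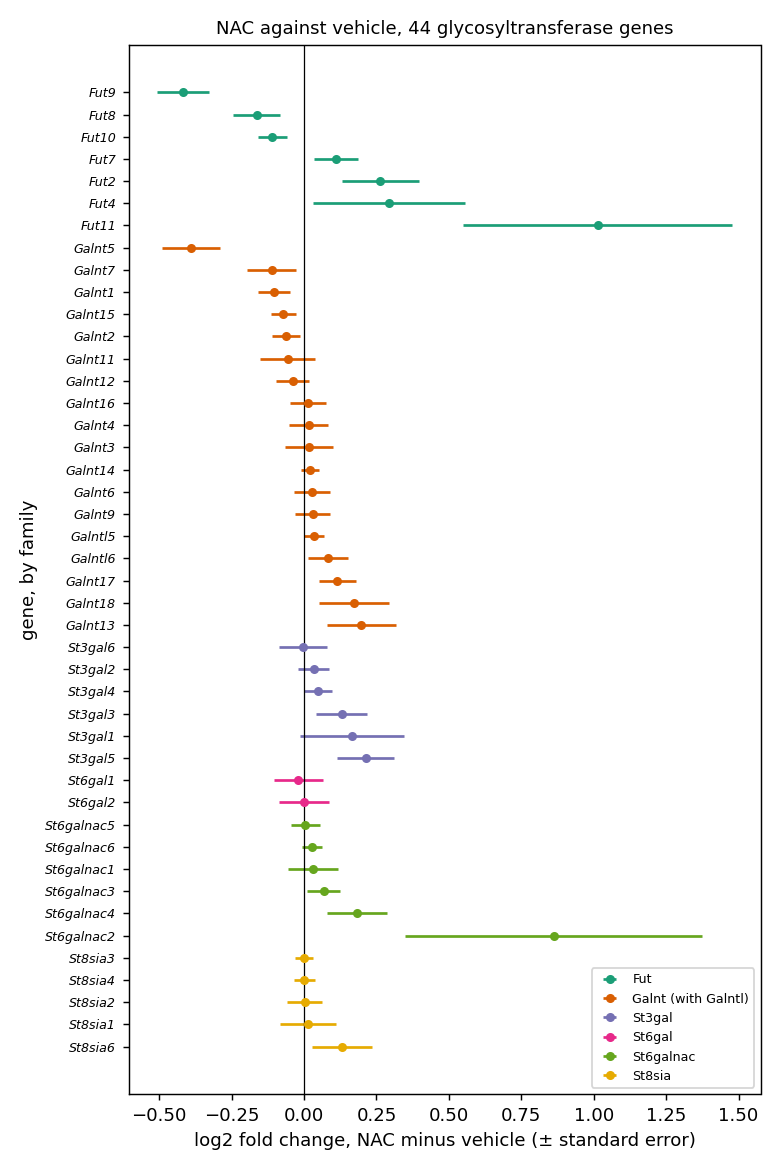
Difference between NAC and vehicle means in log2 units (horizontal axis) for the 44 members (vertical axis), coloured by family, with bars of 1 standard error. Most points lie near 0, with Fut9 (-0.42) and Galnt5 (-0.39) at the left and Fut11 (1.01) and St6galnac2 (0.86) at the right.

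Fut9, an enzyme that attaches the fucose of the Lewis X antigen, was lower with NAC. Its log2 values were 9.85, 9.76 and 10.08 on vehicle replicates 1, 2 and 4, and 9.36, 9.56, 9.43 and 9.57 on NAC replicates 1 to 4. The groups did not overlap, and NAC replicates 1 and 3 were the lowest arrays. The means were 9.90 ± 0.16 (SD, n = 3) and 9.48 ± 0.10 (SD, n = 4), a log2 difference of -0.42 (SE 0.09, 95% interval -0.63 to -0.21), or 0.749 times the vehicle intensity. The limma p was 0.0023 before adjustment and 0.827 after. Without NAC replicate 3 the difference was -0.40, and with each array left out in turn it lay between -0.48 and -0.33.

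Fut11, a fucosyltransferase placed beside the Lewis enzymes by its sequence, had the largest difference of the members. Its values were 6.61, 6.54 and 6.54 with vehicle and 8.49, 6.82, 8.24 and 6.77 with NAC. The vehicle arrays were almost equal, while the NAC arrays split into a high pair, replicates 1 and 3, and a pair just above vehicle, replicates 2 and 4. The log2 difference was 1.01 (SE 0.46, 95% interval -0.09 to 2.11, limma adjusted p = 0.827), or 2.02 times, with group means of 6.57 ± 0.04 (SD, n = 3) and 7.58 ± 0.91 (SD, n = 4). It was 0.79 when NAC replicate 3 was left out and 0.71 when replicate 1 was, and it came to 1.28 on leaving out replicate 4. The high arrays were also the one with lung and adipocyte transcripts (replicate 3) and the one with the highest summed level of 5 leukocyte genes (replicate 1, 9.87 against 9.34 to 9.47 on the others). Of these genes, Itgam (7.87) and Adgre1 (7.91) stood out on NAC replicate 1. Ptprc (7.14) was level with vehicle replicate 4, Cd68 was highest on NAC replicate 3, and Cd3e (6.76) was lowest on NAC replicate 1. The part of other cells in the Fut11 values was not tested. The probe set of Fut11 is tied to 1 transcript accession, a cDNA, and to 0 RefSeq mRNAs in the array's annotation, whereas the other 43 members have at least 1 RefSeq mRNA.

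Fut2 adds the fucose of the H antigen to secreted glycans. It read 10.34, 10.16 and 10.45 with vehicle and 10.87, 10.37, 10.43 and 10.64 with NAC. The highest vehicle array lay above 2 NAC arrays, and the difference of 0.26 (SE 0.13, 95% interval -0.05 to 0.58) did not pass and was 0.17 without NAC replicate 1. Fut4 makes Lewis X and selectin ligands in myeloid cells, and its values were 7.14, 7.94 and 7.02 with vehicle and 7.42, 7.91, 7.36 and 7.95 with NAC. Vehicle replicate 2 and NAC replicates 2 and 4 formed a high group of their own, and the difference of 0.29 (SE 0.26) became 0.58 without vehicle replicate 2, 0.12 without vehicle replicate 4 and 0.18 without vehicle replicate 1. Fut7, which completes the sialyl Lewis X ligand of selectins on leukocytes, was at 6.12 to 6.25 with vehicle and 6.19 to 6.50 with NAC (difference 0.11, SE 0.08). Leaving out NAC replicate 4, the highest array, gave 0.05, and leaving out vehicle replicate 2, the lowest, gave 0.07.

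The 2 other members of the family were lower by sign. Fut8, the only enzyme that adds core fucose to N-glycans, read 8.01, 7.75 and 7.75 with vehicle and 7.65, 7.68, 7.79 and 7.57 with NAC. NAC replicate 3 was above 2 of the vehicle arrays, and the difference of -0.16 (SE 0.08) was -0.08 without vehicle replicate 1, the highest array. Fut10, named for its sequence likeness to the other fucosyltransferases, was at 6.34 to 6.48 with vehicle and 6.21 to 6.35 with NAC (difference -0.11, SE 0.05). Vehicle replicate 1 overlapped the NAC arrays for Fut10.

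**Figure D2:**
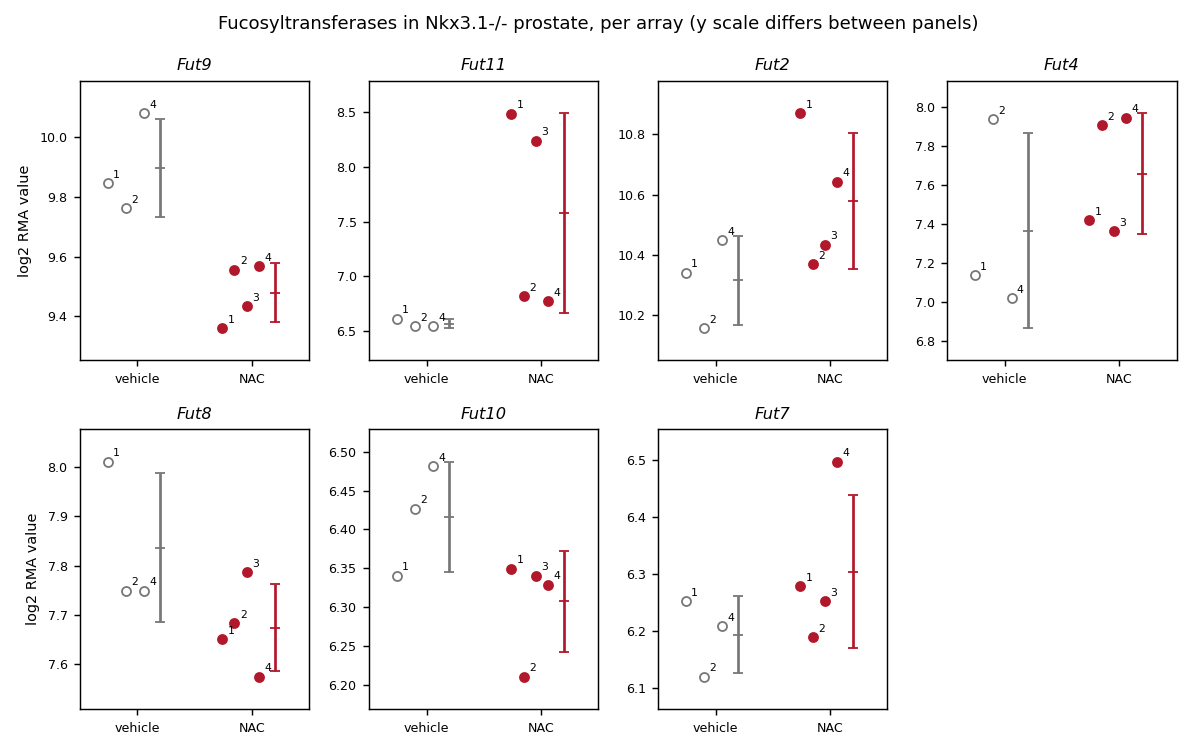
Log2 RMA value (vertical axis, scale differs between panels) of the 7 Fut genes on each vehicle array (open circles) and NAC array (filled circles), numbered by replicate, with mean and SD beside each group. Fut9 separates the groups downwards and Fut11 upwards, with NAC replicates 1 and 3 of Fut11 above 8, and in the other 5 panels the groups overlap.

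Galnt5, one of the GalNAc-transferases that start O-glycans, was the member with the second smallest p. Its values were 7.23, 7.00 and 7.27 with vehicle and 6.65, 6.96, 6.67 and 6.83 with NAC. The groups did not overlap, but NAC replicate 2 came close to vehicle replicate 2. Group means of 7.17 ± 0.14 (SD, n = 3) and 6.78 ± 0.15 (SD, n = 4) gave a log2 difference of -0.39 (SE 0.10, 95% interval -0.62 to -0.16), or 0.763 times. The limma p was 0.0058 before adjustment and 0.827 after. The difference was -0.35 without NAC replicate 3 and lay between -0.47 and -0.34 with each array left out.

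For both Fut9 and Galnt5 the lowest arrays were NAC replicates 1 and 3. The same 2 arrays were lowest for the seminal vesicle genes Svs2, Svs3a, Svs5, Svs6 and Pate4, and replicate 1 was lowest for Svs4 as well. All 7 seminal vesicle markers had lower NAC means, with a median difference of -0.53 and only -0.03 for the dim Svs1. For 3 of them, Svs3a, Svs4 and Svs6, the groups did not overlap (background 2.18% lower). Svs3a read 11.60, 12.03 and 12.15 with vehicle and 9.72, 11.38, 10.74 and 11.11 with NAC (difference -1.19, SE 0.39), and Svs4 read 12.40, 12.43 and 12.72 against 10.38, 12.17, 11.72 and 11.66 (difference -1.03, SE 0.40). Svs6 differed by -1.02 (SE 0.38). NAC replicate 4 went the other way in Svs2, at 13.53 against 9.40 to 11.57 on the other arrays, and in Pate4, at 11.43 against 6.61 to 9.17, while its Fut9 and Galnt5 values stayed with the NAC group. Prostate epithelium markers held 0 of 8 genes whose groups did not overlap, where the background is 1.29% higher and 2.18% lower. The part of seminal vesicle RNA in the Fut9 and Galnt5 values was not tested.

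**Figure D3:**
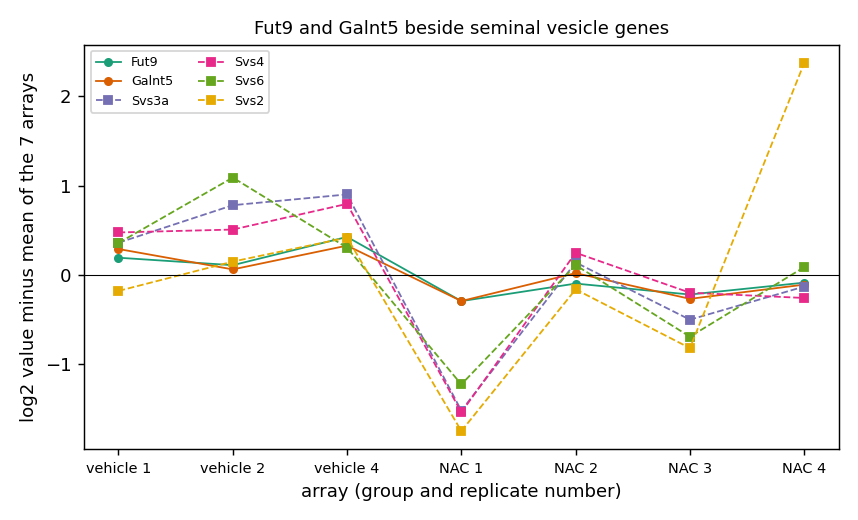
Log2 value minus the mean of the 7 arrays (vertical axis) of Fut9 and Galnt5 (circles, solid lines) and of 4 seminal vesicle genes (squares, dashed lines) on each array (horizontal axis). All 6 genes are lowest on NAC replicate 1, and on NAC replicate 4 Svs2 reaches 13.53 while Fut9 stays at 9.57.

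Of the other 17 GalNAc-transferases, 11 had higher and 6 had lower NAC means, and all 17 differed by at most 0.20. Galnt1, a broadly expressed initiating enzyme, had the second smallest p of the family. It read 8.52, 8.60 and 8.61 with vehicle and 8.46, 8.57, 8.51 and 8.36 with NAC, a difference of -0.10 (SE 0.05, 95% interval -0.23 to 0.03, limma adjusted p = 0.827), and its groups overlapped. Without NAC replicate 4, its lowest array, the difference was -0.07. Galnt2, also broadly expressed, differed by -0.06 (SE 0.05), and Galnt3, which glycosylates the hormone FGF23, by 0.02 (SE 0.08). Galnt4 and Galnt7, which prefer substrates that already carry GalNAc, differed by 0.02 (SE 0.07) and -0.11 (SE 0.08). Galnt13, known from neurons, had the highest difference of the family, 0.20 (SE 0.12), with NAC replicate 4 at 4.23 and the other NAC arrays at 3.82. Galnt18 differed by 0.17 (SE 0.12), with the lowest value, 8.95, on vehicle replicate 4.

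Among the sialyltransferases, 0 of 19 members had groups that did not overlap (background 1.29% higher and 2.18% lower), a count too small to set them apart from all genes. The St3gal enzymes place sialic acid on galactose. St3gal5, which makes the ganglioside GM3, read 6.19, 6.04 and 6.02 with vehicle and 6.43, 6.07, 6.43 and 6.24 with NAC. NAC replicates 1 and 3 were highest and NAC replicate 2 lay among the vehicle arrays, for a difference of 0.21 (SE 0.10, 95% interval -0.02 to 0.45, limma adjusted p = 0.827), or 0.17 with NAC replicate 3 left out. St3gal3, which caps N-glycans, read 8.40, 8.20 and 8.10 with vehicle and 8.42, 8.25, 8.29 and 8.49 with NAC (difference 0.13, SE 0.09). Its difference moved to 0.06 without vehicle replicate 4, 0.21 without vehicle replicate 1 and 0.09 without NAC replicate 4. St3gal1, which caps core O-glycans, differed by 0.17 (SE 0.18). St3gal2, St3gal4 and St3gal6 differed by 0.03, 0.05 and 0.00.

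St6gal1 caps N-glycans and makes the ligand of the B cell receptor CD22. It read 6.96, 6.91 and 6.91 with vehicle and 7.11, 6.86, 6.92 and 6.74 with NAC, a difference of -0.02 (SE 0.08, 95% interval -0.22 to 0.18). The NAC arrays lay on both sides of the vehicle arrays. For St6gal2 the difference was 0.00 (SE 0.09), with 4.67 to 4.72 with vehicle and 4.52 to 4.90 with NAC.

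The St6galnac enzymes sialylate the GalNAc of O-glycans or of gangliosides, and all 6 had a NAC mean above the vehicle mean, 4 of them by under 0.1. St6galnac2, which acts on O-glycans, varied most across arrays among all members, over 2.55 log2 units. It read 9.66, 9.29 and 7.76 with vehicle and 9.49, 9.08, 10.31 and 10.19 with NAC. Vehicle replicate 4 stood low and NAC replicates 3 and 4 stood high, while the other 4 arrays lay between 9.08 and 9.66. The difference of 0.86 (SE 0.51, 95% interval -0.36 to 2.08, limma adjusted p = 0.827) became 0.29 without vehicle replicate 4, 1.24 without vehicle replicate 1 and 0.68 without NAC replicate 3. St6galnac4, which makes the disialyl T antigen, read 5.69, 5.89 and 5.87 with vehicle and 5.96, 5.77, 6.15 and 6.13 with NAC (difference 0.18, SE 0.10), with NAC replicates 3 and 4 again highest. Replicate 3 is the array with lung and adipocyte transcripts, and without it the St6galnac4 difference was 0.13. Leaving out vehicle replicate 1 gave 0.12. St6galnac1, which makes sialyl-Tn, differed by 0.03 (SE 0.09).

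The St8sia enzymes add sialic acid to sialic acid. St8sia6 read 5.40, 5.43 and 5.19 with vehicle and 5.71, 5.30, 5.45 and 5.43 with NAC (difference 0.13, SE 0.10). The difference was 0.05 without NAC replicate 1 and 0.06 without vehicle replicate 4, the highest and the lowest array. St8sia1, which makes the ganglioside GD3, read 5.37, 5.62 and 5.83 with vehicle and 5.62 on all 4 NAC arrays (difference 0.01, SE 0.10). St8sia2 and St8sia4, which build polysialic acid on the neural adhesion molecule NCAM, both differed by 0.00, as did St8sia3, which held 5.18 on all 4 NAC arrays.

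**Figure D4:**
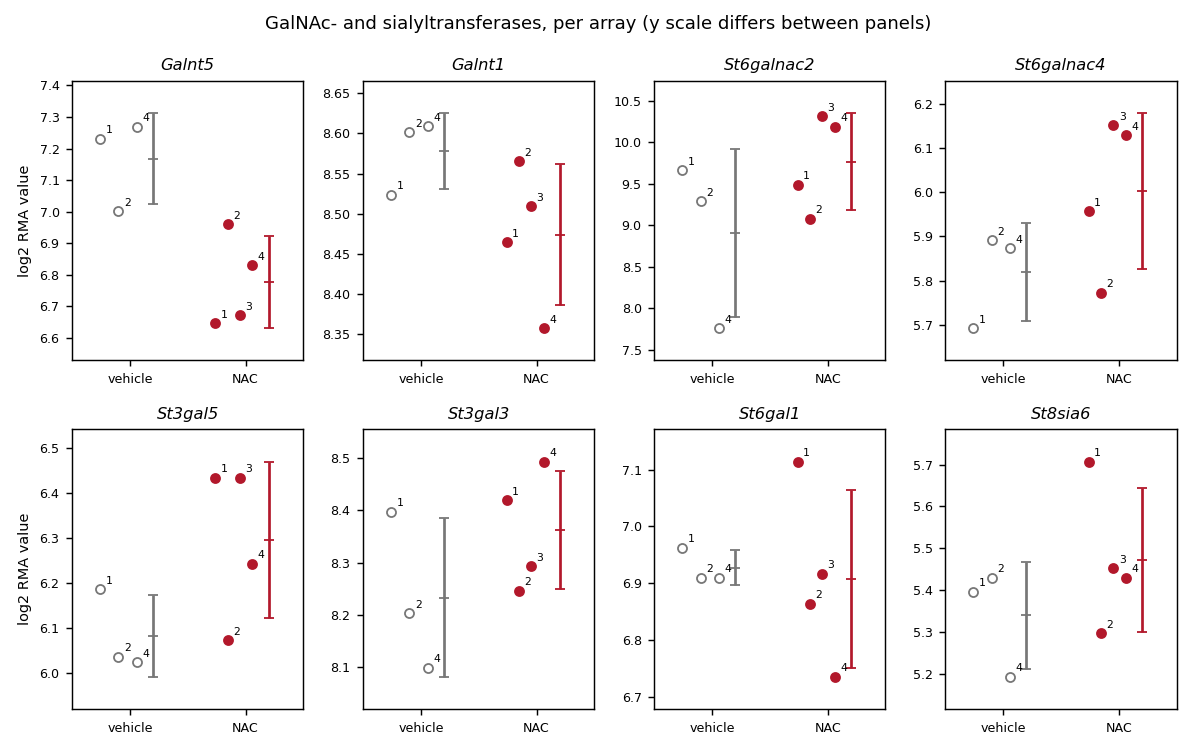
Log2 RMA value (vertical axis, scale differs between panels) of Galnt5, Galnt1 and 6 sialyltransferase genes on each vehicle array (open circles) and NAC array (filled circles), numbered by replicate, with mean and SD beside each group. The groups are apart for Galnt5 and overlap in the other 7 panels, and vehicle replicate 4 of St6galnac2 lies far down at 7.76.

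Single arrays differed in how often they held the extreme value of a member. Vehicle replicate 4 alone was lowest in 13 of 44 members (29.5%), against 13.5% of all genes, and alone was highest in 8 (18.2%, against 10.6%). Vehicle replicate 2 alone was lowest in 10 members (22.7%, against 13.2%) and alone was highest in 2 (4.5%, against 10.2%). NAC replicate 4 alone was highest in 11 members (25.0%, against 19.3%). NAC replicate 3, the array with lung and fat transcripts, alone was highest in 8 members (18.2%, against 14.8%) and alone was lowest in 1 (2.3%, against 14.7%). These shares were not tested.

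Fut4 and St3gal1 shared a pattern that crossed the treatment groups, which was noticed after their values were seen. St3gal1 read 7.49, 8.04 and 7.32 with vehicle and 7.56, 7.92, 7.73 and 7.92 with NAC, so that vehicle replicate 2 and NAC replicates 2 and 4 were highest, as for Fut4. Its difference of 0.17 became 0.38, 0.02 and 0.10 with vehicle replicate 2, 4 or 1 left out. Gfpt2, the first enzyme of the hexosamine pathway that supplies amino sugars, was at 8.79 to 8.99 on the same 3 arrays and at 7.68 to 8.08 on the other 4. The galactosyltransferase B4galt5, which makes lactosylceramide, was at 8.68 to 8.86 on those 3 and at 8.01 to 8.33 on the others. The monocyte chemokine Ccl2 was at 7.88 to 8.33 and at 6.33 to 6.68. Gfpt2, B4galt5 and Ccl2 lie outside the rule for named genes and are shown because the same 3 arrays are highest. How many of all genes share this order was not counted, so the likeness is no result of its own. The 3 arrays belong to both groups, and the part of this pattern in the NAC comparison was not tested beyond leaving out single arrays.

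**Figure D5:**
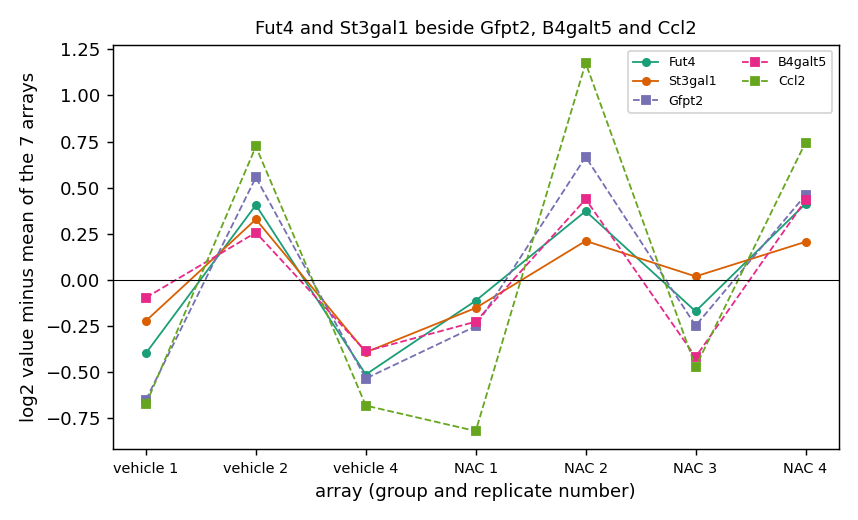
Log2 value minus the mean of the 7 arrays (vertical axis) of Fut4 and St3gal1 (circles, solid lines) and of Gfpt2, B4galt5 and Ccl2 (squares, dashed lines) on each array (horizontal axis). Vehicle replicate 2, NAC replicate 2 and NAC replicate 4 are the high arrays for all 5 genes, with Ccl2 between 7.88 and 8.33 there. Gfpt2, B4galt5 and Ccl2 are shown for sharing this pattern.

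The other genes of the same glycan pathways were taken from a list of 86, of which 80 were measured. Of these, 0 passed an adjusted limma p under 0.05, 46 had higher and 34 lower NAC means, and the median difference was 0.02. For 1 gene the NAC values lay above all vehicle values (background 1.29%) and for 5 genes below them (background 2.18%). By role, 13 of 20 genes of nucleotide sugar supply and 5 of 6 genes of glycan removal had lower NAC means, against 9 of 27 core and chain extension genes and 3 of 15 mucin genes. Of 10 receptors that read sialylated or fucosylated glycans, 6 had higher means, and the 2 enzymes of protein O-fucosylation differed by 0.00. These splits were not tested.

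In sugar supply, Fpgt, which salvages fucose into GDP-fucose, read 7.64, 7.66 and 7.73 with vehicle and 7.58, 7.57, 7.33 and 7.16 with NAC (difference -0.27, SE 0.11). Gnpnat1, an acetyltransferase on the way to UDP-GlcNAc, read 9.33, 9.17 and 9.38 against 9.14, 9.14, 9.07 and 9.08 (difference -0.18, SE 0.06). Both separated the groups by less than 0.1, as did A4galt, B4galt4 and Fuca2.
Of the chain enzymes, A4galt makes the glycolipid Gb3. It read 11.63, 11.42 and 11.59 with vehicle and 11.40, 11.39, 11.29 and 11.24 with NAC (difference -0.22, SE 0.07). B4galt4, a galactosyltransferase, read 10.704, 10.579 and 10.614 against 10.548, 10.575, 10.546 and 10.478 (difference -0.10, SE 0.04), so its groups almost touched. The fucosidase Fuca2, which removes fucose, was at 11.01 to 11.08 with vehicle and 10.88 to 10.97 with NAC (difference -0.13, SE 0.03). Muc4, a membrane mucin and carrier of O-glycans, was the 1 gene above, at 5.83 to 5.84 with vehicle and 5.95 to 6.09 with NAC (difference 0.18, SE 0.04). For each of these 6 genes the limma p was 0.827 after adjustment.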

How the data were processed

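RNA of 3 vehicle and 4 NAC Nkx3.1-/- prostates was measured, 1 mouse per array. The authors normalized the arrays by quantiles with RMA background correction and median polish of perfect-match probes, and the deposited log2 values were used as they are. Signal over background cannot be seen from these values.

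Probe sets were named through the array's annotation table, and symbols were brought up to date by Entrez identifier (18922 matched in the GRCm38.p6 gene list). Of 20696 probe sets, 18950 name 1 gene, 678 several and 1068 none, and the last 2 kinds were left out. Where several probe sets name a gene, only the one with the highest mean was kept, which leaves 18938 genes.

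NAC was compared with vehicle with the lmFit and eBayes functions of limma 3.58.1 (R 4.3.3), two-sided and without covariates, with Benjamini-Hochberg adjustment over all genes and a threshold of 0.05. The test was tested on simulated data. Groups that do not overlap were counted in each direction. Summed levels are log2 of summed linear values. The members and lists were chosen with earlier results of these data known. A rule named the genes given by array, or, for St6gal2, Fuca2 and Muc4, by group range. They are Fut9, members whose groups do not overlap and the 2 smallest p per family, and, of the other pathway genes, those whose groups do not overlap and the 3 smallest p. Fut2, Fut4, Fut7, Fut8, Fut10 and St3gal1 were added after their values were seen. Gfpt2, B4galt5 and Ccl2, which the rule does not name, are shown for their pattern over the arrays. Some listed marker genes are not reported here. As alternatives, array weights were used, a robust fit with a variance trend was made, array medians were subtracted, the values were quantile normalized again, genes under the 40th percentile (log2 6.59) were removed, probe sets of a gene were summarized by their median, the replicate number was added as a block, and each array was left out.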

Additional observations from a re-analysis of the deposited data

Results flagged for a closer look

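In 4 of the 44 members, 1 of the 4 NAC arrays lay farther from the other NAC arrays than Dixon's critical value for 4 arrays allows (9.09%, against 3846 of all 18938 genes, or 20.3%). The value is set so that chance exceeds it in about 1 of 20 groups of continuous values, which does not hold where arrays share identical values. In 2 of the 4 members and in 1799 of the 3846 genes the other 3 NAC arrays are equal. Fut10 was at 6.21 on NAC replicate 2, with the next array at 6.33. Galnt13 was at 4.23 on NAC replicate 4, with the other 3 at 3.82. Galntl5 was at 4.99 on NAC replicate 4, with the next at 4.92. St8sia4 was at 5.86 on NAC replicate 1, with the others at 5.83. The vehicle group of 3 arrays was not examined in this way.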

How the results depend on the processing

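Under 14 alternatives, 0 members and 0 other pathway genes passed the threshold. Fut9, Galnt5 and Fut11 kept groups that do not overlap after array medians were subtracted and after quantile normalization again, the 2 alternatives that could have ended this. The smallest adjusted limma p of Fut9, Galnt5 and Fut11 over the alternatives was 0.667. Leaving out 1 array gave 1 to 5 members with non-overlapping higher and 2 to 4 with lower NAC values, the most without vehicle replicate 1, and a median difference of 0.0208 to 0.035. Subtracting array medians gave 3 lower, with Galnt15 added. The shares of all genes with groups that do not overlap were not counted under these alternatives. The median of the members moved to 0.0018 after quantile normalization again. The sign turned for St6gal1 with array weights (0.0154) and for St8sia1 with array weights (-0.0135) and quantile normalization again (-0.0189), and with single arrays left out they ranged from -0.0889 to 0.0372 and from -0.1034 to 0.1229. The cause was not tested. Without NAC replicate 4, 1 gene of all passed, at an adjusted limma p of 0.033, and it is not a member.

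Deviations of same-numbered arrays from their group means correlated at 0.212 (replicate 1), 0.286 (replicate 2) and -0.067 (replicate 4). Arrays of unlike number ranged from -0.271 (vehicle 2 with NAC 1) to 0.21 (vehicle 2 with NAC 4). These values do not settle whether equal numbers mark paired mice. With the replicate block, where NAC replicate 3 has no partner and adds nothing to the contrast, 0 members passed, and Fut9 differed by -0.40. Before adjustment 5 members had a limma p under 0.05, against 2 without the block (Fut2, Fut8 and St3gal5 added). Over all 18938 genes, 956 had such a p with the block and 836 without it. Removing dim genes left 25 members, so Fut7, Fut10, St3gal5, St6gal2, St6galnac4, St8sia1 and St8sia6 have no value there. Whether probes of dim genes stand above background is not known from these values.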
